A study of Homo sapiens with 4 samples.

Results

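Open chromatin at the keratin genes was compared between C4-2B, a human prostate adenocarcinoma cell line, and C4-2BER, the line that was derived from it by prolonged growth in enzalutamide, an inhibitor of the androgen receptor, and that the study uses as a neuroendocrine-like model. The assay was ATAC-seq, in which a transposase inserts sequencing adapters into accessible DNA. Each line had 2 libraries, both grown in RPMI medium with fetal bovine serum, and the study's methods give C4-2BER as kept in enzalutamide throughout, so the drug and the derived state cannot be told apart. C4-2BER is 1 derived line, so a difference from C4-2B cannot be told apart from the history of that line. The libraries of a line were merged by the authors before peaks were called, which left 1 list of accessible intervals per line, and no difference below has a replicate check or a test. C4-2B was the deeper list, with 30.19 M reads recovered against 25.23 M for C4-2BER. The members were all protein-coding genes of GENCODE release 44 named KRT followed by a number and at most 1 letter, which gave 55 of 19689 protein-coding genes. An interval was assigned to a promoter when it reached within 2 kb of any transcription start site (TSS) of a protein-coding transcript, and positions are in hg38. A promoter with such an interval is called open below and one without it closed, although weak sites under the limit of a list are not seen.

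Keratins are the intermediate filament proteins of epithelial cells. Each filament is built from pairs of a type I and a type II keratin. The type II genes lie side by side in a cluster on chromosome 12, together with KRT18, a type I gene, and the other type I genes lie in a cluster on chromosome 17. Simple epithelia such as the luminal cells of the prostate make KRT8 and KRT18, basal cells make KRT5, KRT14 and KRT15, stratified epithelia add further pairs as their cells mature, and the hair follicle has its own large set. In prostate pathology KRT8 and KRT18 mark luminal cells and KRT5 and KRT14 mark basal cells.

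Most keratin promoters were closed in both lines. Among the open ones that could be compared, most did not differ between the lines by more than counting error. Those that did had lower values in C4-2BER. Of the 55 genes, 14 had a promoter interval in both lists, 7 in C4-2B only, 1 in C4-2BER only and 33 in neither. The share with an interval in both lists was 25.5% (Wilson 95% interval, 15.8 to 38.3), against 77.7% of all protein-coding genes. The share in C4-2B only was 12.7% (6.30 to 24.0), against 2.83% of all genes, whereas the share in C4-2BER only was 1.82% (0.322 to 9.61), against 3.39%. The C4-2B-only share depended on the lists and the window. It was 5.45% (1.87 to 14.9, 3 genes) both with equal numbers of top intervals in each list, against 1.78% of all genes, and with promoters of 1 kb either side, against 2.33%, so the lower end of its interval was near the share of all genes. Neither list held an interval for 60.0% of the keratin genes (46.8 to 71.9) and 16.0% of all genes. These intervals, and those on reads below, cover counting error only. Neighbouring genes can share an interval, so the genes are not independent.

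The classes differed in how many promoters were open at all. All 6 simple epithelial keratins had a promoter interval in at least 1 list. KRT8, KRT18, KRT19 and KRT23 had one in both lists, KRT7 in C4-2B only and KRT20 in C4-2BER only. Of the 4 basal keratins, KRT15 had one in both lists and KRT5 in C4-2B only, while KRT14 and KRT17 had none. Of the 18 suprabasal and stratified keratins, 6 had an interval in both lists, 3 in C4-2B only and 9 in neither. Of the 26 hair and root sheath keratins, 3 had one in both lists, 2 in C4-2B only and 21 in neither. KRT222, which was placed in no class, had none. The simple epithelial class has only 6 genes, and the counting interval of its share in neither list held the 16.0% of all genes. Its full count also depended on the window and the lists. With promoters of 1 kb either side, KRT7, KRT19 and KRT23 had no interval, while the basal KRT5 and KRT15 kept theirs. With a −log10 q of at least 5, KRT20 had none. By position, 12 of the 27 genes on chromosome 12 and 21 of the 28 on chromosome 17 had no promoter interval. The 34 KRTAP genes that lie inside the chromosome 17 cluster encode matrix proteins of the hair shaft. They were mostly closed as well, with 28 in neither list (82.4%, 66.5 to 91.7), against 16.0% of all genes. Of the rest, 2 were in both lists and KRTAP3-3 was in C4-2BER only. In C4-2B only were 3 (KRTAP1-1, KRTAP9-6 and KRTAP16-1), or 8.82% (3.05 to 23.0), against 2.83% of all genes.

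**Figure D1:**
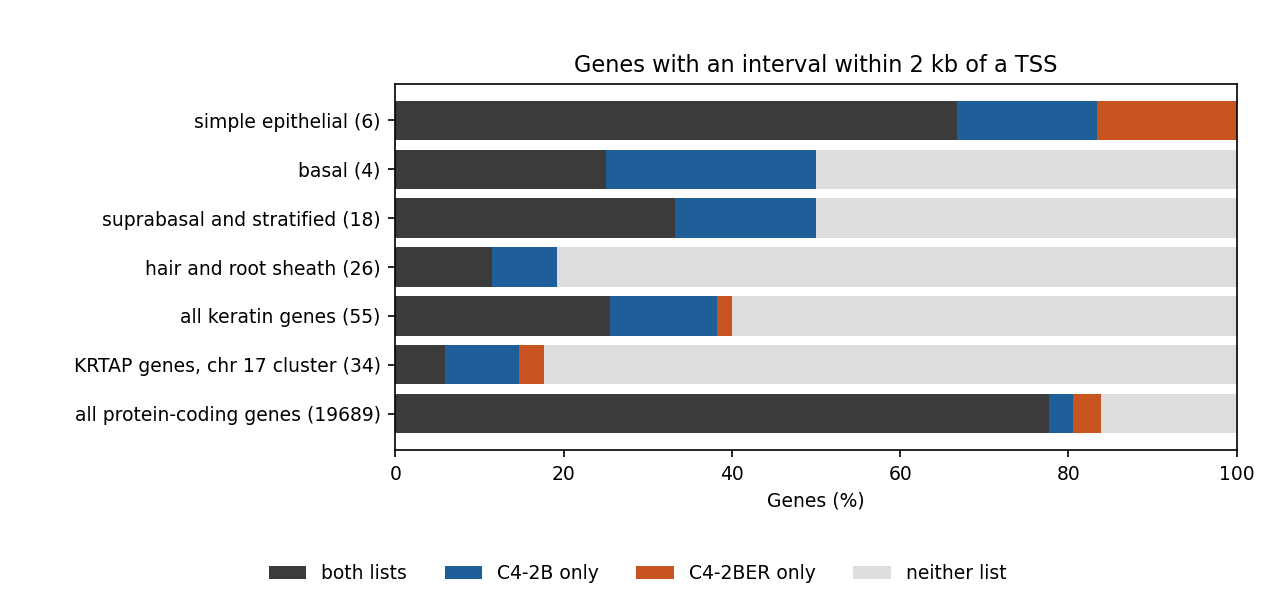
Percent of genes with an interval within 2 kb of a TSS in both lists, in 1 list or in neither (x axis), for each keratin class, all keratin genes, the KRTAP genes of the chromosome 17 cluster and all protein-coding genes; numbers of genes are in brackets. The simple epithelial keratins had no gene in the neither group, while 60.0% of all keratin genes and 16.0% of all protein-coding genes were in it.

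The sequences around the keratin starts set them apart from most genes. In the window from 250 bases before to 50 bases after the canonical TSS, the median GC content was 48.3% over the 55 keratin genes and 63.7% over 19687 protein-coding genes. The median ratio of observed to expected CpG dinucleotides was 0.188 for the keratins and 0.777 for all genes. Only 4 keratin promoters had a ratio above 0.6 (7.27%, against 67.6% of all genes), which were KRT18 at 0.881, KRT7 at 0.732, KRT72 at 0.715 and KRT222 at 0.657. Of these, KRT18 and KRT7 are simple epithelial keratins and KRT72 is a root sheath keratin. Over the 26 hair and root sheath keratins the median ratio was 0.135.

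The letters TATAA stood on the gene's strand between 40 and 20 bases before the start in 31 of the 55 keratin promoters (56.4%) and in 6.20% of all promoters. By class they stood in 14 of 18 suprabasal, 13 of 26 hair, 3 of 4 basal and 1 of 6 simple epithelial promoters. The last 70 bases before the start of 4 of them, taken from RefSeq (GRCh38.p14, where 34 of the 55 members have a promoter entry), are shown to make this common layout visible, with TATAA in capitals. They are KRT4 of the oesophageal epithelium (chr12:52814117-52814186), KRT10 of the upper epidermis (chr17:40822615-40822684), KRT71 of the inner root sheath (chr12:52553146-52553215) and KRT35 of the hair cortex (chr17:41481152-41481221), all on the minus strand.
KRT4: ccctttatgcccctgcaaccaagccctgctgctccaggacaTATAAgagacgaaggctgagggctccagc
KRT10: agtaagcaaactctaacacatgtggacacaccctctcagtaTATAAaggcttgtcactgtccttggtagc
KRT71: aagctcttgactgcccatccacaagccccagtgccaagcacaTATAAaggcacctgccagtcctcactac
KRT35: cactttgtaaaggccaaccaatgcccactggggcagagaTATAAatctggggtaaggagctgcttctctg
The TATAA letters began 29, 29, 28 and 31 bases before the start in this order. A match of letters does not show that a factor was bound.

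The intervals seldom lay on these starts. An interval covered a TSS in 4 keratin genes in C4-2B (7.27%) and in 5 in C4-2BER (9.09%), against 70.1% and 73.5% of all genes. Most keratin genes had no promoter interval at all, so this comparison does not show where the intervals lie. The genes with a covered TSS were KRT80, KRT6C, KRT8 and KRT18 in both lists, plus KRT20 in C4-2BER. Of 28 distinct promoter intervals in C4-2B, 6 covered a TSS and 13 had their summit more than 1 kb from the nearest TSS. Of 21 in C4-2BER, 6 covered a TSS and 7 had such a distant summit. These shares were not computed over the promoter intervals of all genes.

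KRT8 and KRT18, of the simple epithelial class, carried the highest summit reads of the family. KRT8 encodes the type II keratin and KRT18 the type I keratin of the luminal filament. At the canonical start of KRT8, the summit held 141 reads in C4-2B, 37 bases before the TSS, and 148 reads in C4-2BER, 1 base after it. Per depth, the C4-2BER value was 1.26 times that of C4-2B (exact 95% interval, 0.990 to 1.59). The interval with the highest enrichment within 2 kb of a KRT8 start lay 1017 bases before an upstream TSS and 22410 bases before the canonical one. It held 111 C4-2B reads and 110 C4-2BER reads, a ratio of 1.19 (0.903 to 1.56). Both ratio intervals held 1, so a difference at these points was not detectable at this depth. The sequence around the second summit (chr12:52927386-52927586, minus strand, 61.7% GC) is shown because its reads per depth were not lower in C4-2BER. It holds none of the motif letters that were searched for around summits and are spelled out below with the cluster results.
KRT8: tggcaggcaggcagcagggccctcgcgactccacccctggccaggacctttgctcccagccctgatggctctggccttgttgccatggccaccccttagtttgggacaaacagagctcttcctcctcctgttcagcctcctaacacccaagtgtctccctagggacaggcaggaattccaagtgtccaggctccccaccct

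KRT18, the partner of KRT8, had its start in an interval with 159 reads at its C4-2B summit against 108 for C4-2BER, a ratio of 0.813 (0.631 to 1.04). At a further summit, 788 bases after the start in C4-2B, 174 reads stood against 101, a ratio of 0.695 (0.538 to 0.893). The interval of the latter ratio lay wholly below 1. Long KRT8 transcripts start on the opposite strand beside KRT18, so these intervals belong to the promoters of both genes, and their reads cannot be assigned to either. The difference between the KRT8 and KRT18 ratios was not tested. Across the stretch from KRT8 to KRT18, each list held 10 intervals, of which 2 were only in C4-2B and 1 only in C4-2BER. Of 11 pairs of summits within 100 bp of each other, the ratio interval lay above 1 in 2, both downstream of KRT8 (38 against 53 reads, ratio 1.67, and 32 against 49 reads, ratio 1.83), and below 1 in 2 (109 against 63 reads, ratio 0.692, 2290 bases upstream of the canonical KRT8 start, and the KRT18 summit above). The background around the summits here was itself high, with a median over the genome-wide floor of 8.14-fold (C4-2B) and 11.3-fold (C4-2BER), and its part in these ratios was not tested.

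**Figure D2:**
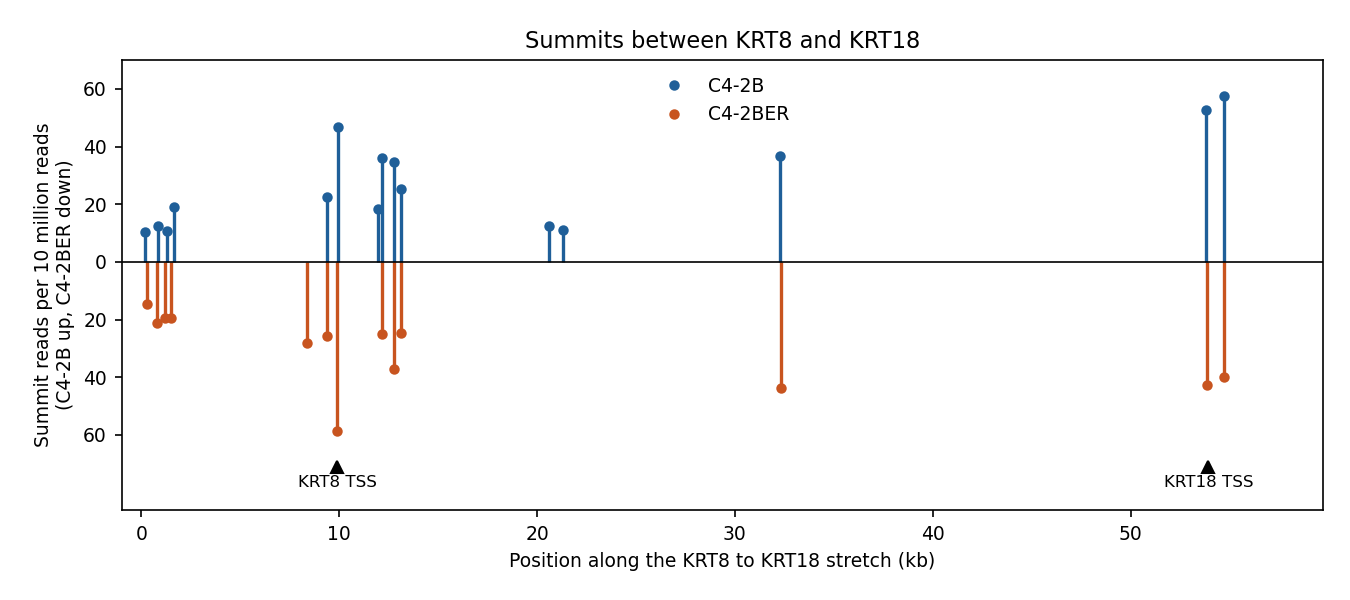
Summit reads per 10 M reads (y axis, C4-2B upward and C4-2BER downward) at each summit along the stretch from KRT8 to KRT18 (x axis, kb); triangles mark the canonical TSSs. The C4-2BER summit at the KRT8 start (58.7) stands above that of C4-2B (46.7), and the summit at the KRT18 start is lower in C4-2BER (42.8) than in C4-2B (52.7).

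The other 4 simple epithelial keratins had weaker intervals. KRT7, a type II keratin of glandular ducts, had an interval in C4-2B only (chr12:52231405-52232153), whose summit held 52 reads 1503 bases before the TSS, with a −log10 q of 26.9. At a background within 10% of the depth-scaled one there, the C4-2BER list called summits with as few as 13 reads. In this and the like comparisons below, only the background was scaled for depth and not the reads. C4-2B was the deeper list, so the margins of its intervals are somewhat overstated. KRT19, the smallest type I keratin, had 22 C4-2B reads and 12 C4-2BER reads 2043 and 2079 bases upstream, a ratio of 0.653 (0.294 to 1.38). KRT23 had 18 and 15 reads 1240 and 1258 bases upstream, a ratio of 0.997 (0.468 to 2.10). Neither of these differed beyond counting error. KRT20, the keratin of the gut lining and of Merkel cells, had 9 reads in C4-2BER 124 bases before its start, with a −log10 q of 2.75, in an interval that ranked at the 4.82 percentile of its list. Summits with as few as 8 reads were called in C4-2B at a like background, so the absence of KRT20 there rests on very few reads. The KRT7 summit (chr12:52231640-52231840, plus strand) is shown as the strongest promoter interval of the family that was in 1 list only.
KRT7: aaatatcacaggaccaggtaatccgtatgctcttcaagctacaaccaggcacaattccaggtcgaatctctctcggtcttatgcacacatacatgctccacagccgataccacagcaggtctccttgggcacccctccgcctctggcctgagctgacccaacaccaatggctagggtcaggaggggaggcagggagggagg
Its GC content was 56.2%.

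The basal keratins were lower in C4-2BER where they were open at all. KRT15, a type I keratin of basal cells, held 69 C4-2B reads and 24 C4-2BER reads at chr17:41519864-41520229, a ratio of 0.416 (0.250 to 0.671). A second KRT15 interval, 267 bases before another of its starts, held 23 reads and was in the C4-2B list only. KRT5, the type II keratin of basal cells, had an interval of 25 reads in C4-2B only, 876 bases before its nearest start. The C4-2BER list called summits with as few as 10 reads at a like background. Neither list held a promoter interval at KRT14, the partner of KRT5, or at KRT17, although both lists had one at KRT14 when the starts of its noncoding transcripts were counted too. The KRT5 summit (chr12:52521306-52521506, minus strand) is shown because it holds the AP-1 letters TGANTCA, in capitals.
KRT5: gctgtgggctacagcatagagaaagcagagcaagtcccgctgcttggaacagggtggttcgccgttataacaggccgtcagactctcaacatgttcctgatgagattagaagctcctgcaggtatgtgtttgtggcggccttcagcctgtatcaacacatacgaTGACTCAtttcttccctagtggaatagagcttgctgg
TP63, which encodes the p63 factor of basal cells, likewise had a promoter interval in C4-2B only.

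Among the suprabasal and stratified keratins, 3 of the 6 genes open in both lists had a ratio interval wholly below 1, a count not made over all genes. KRT4, a keratin of the oesophagus, held 86 C4-2B reads and 35 C4-2BER reads 505 and 462 bases upstream of its start, a ratio of 0.487 (0.319 to 0.729). KRT6C, a wound-response keratin, held 44 and 15 reads on its start, a ratio of 0.408 (0.211 to 0.747). KRT80, a type II keratin of many epithelia, held 117 and 65 reads, a ratio of 0.665 (0.483 to 0.908). All of these were lower in C4-2BER. For the other three the ratio interval held 1. KRT2, of the upper epidermis, had 107 and 67 reads inside the gene and a ratio of 0.749 (0.544 to 1.03). KRT79 had 39 and 22 reads and a ratio of 0.675 (0.381 to 1.17), near another start, 11793 and 11792 bases after its canonical one. KRT16, induced on wounding, had 64 and 53 reads and a ratio of 0.991 (0.675 to 1.45), 2856 and 2858 bases before its canonical start. Of the genes in C4-2B only, KRT24 held 28 reads 1341 bases after its start, KRT78 held 14 and KRT6A held 11. The KRT78 summit lay 7157 bases after its canonical start, near another start. Summits of 7 to 8 reads were called in C4-2BER at like backgrounds, so KRT24 stood furthest from that limit. The KRT4 summit (chr12:52814521-52814721, minus strand) is shown as the stronger of the 2 that were more than 2-fold lower in this class.
KRT4: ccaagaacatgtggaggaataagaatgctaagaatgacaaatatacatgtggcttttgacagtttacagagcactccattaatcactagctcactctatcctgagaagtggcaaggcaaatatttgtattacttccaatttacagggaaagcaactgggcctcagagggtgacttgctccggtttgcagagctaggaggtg
None of the motif letters was found in it.

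The hair keratins that were open had low values in both lines. KRT33A, of the hair cortex, had 24 C4-2B reads and 13 C4-2BER reads 1963 and 1957 bases upstream, a ratio of 0.648 (0.303 to 1.32). KRT82, of the hair cuticle, had 19 and 18 reads inside the gene, a ratio of 1.13 (0.561 to 2.28). Neither differed beyond counting error. KRT83 had 17 C4-2B reads and 11 C4-2BER reads, but in intervals on either side of its start that did not overlap, with summits 2055 bases after and 131 bases before it. In C4-2B only, KRT86 held 16 reads and KRT71, of the inner root sheath, held 14 and 13 reads in 2 intervals. The KRT86 summit lay 26852 bases after its canonical start, near another start.

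Some keratin genes are near copies of each other, and reads that map equally well to several places are lost by a mapping quality filter. Of all 50-base words within 2 kb of the canonical TSS, 43.0% recurred elsewhere in the clusters at KRT81, 30.7% at KRT6C, 29.4% at KRT6B and 13.4% at KRT6A, and at most 4.45% did at the other members. Around the strongest summit, 23.0% recurred at KRT6C and none at the other members with an interval. The values of KRT6A, KRT6B, KRT6C and KRT81 are therefore uncertain as levels, in both lines alike. Words that recur outside the clusters were not searched for. Loss of reads to copies elsewhere in the genome was thus not tested for any member, including closed ones such as KRT14 and KRT17. Recurring words were not counted at the KRTAP genes, so loss of reads was not tested for them or for the stretch where they lie.

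**Figure D3:**
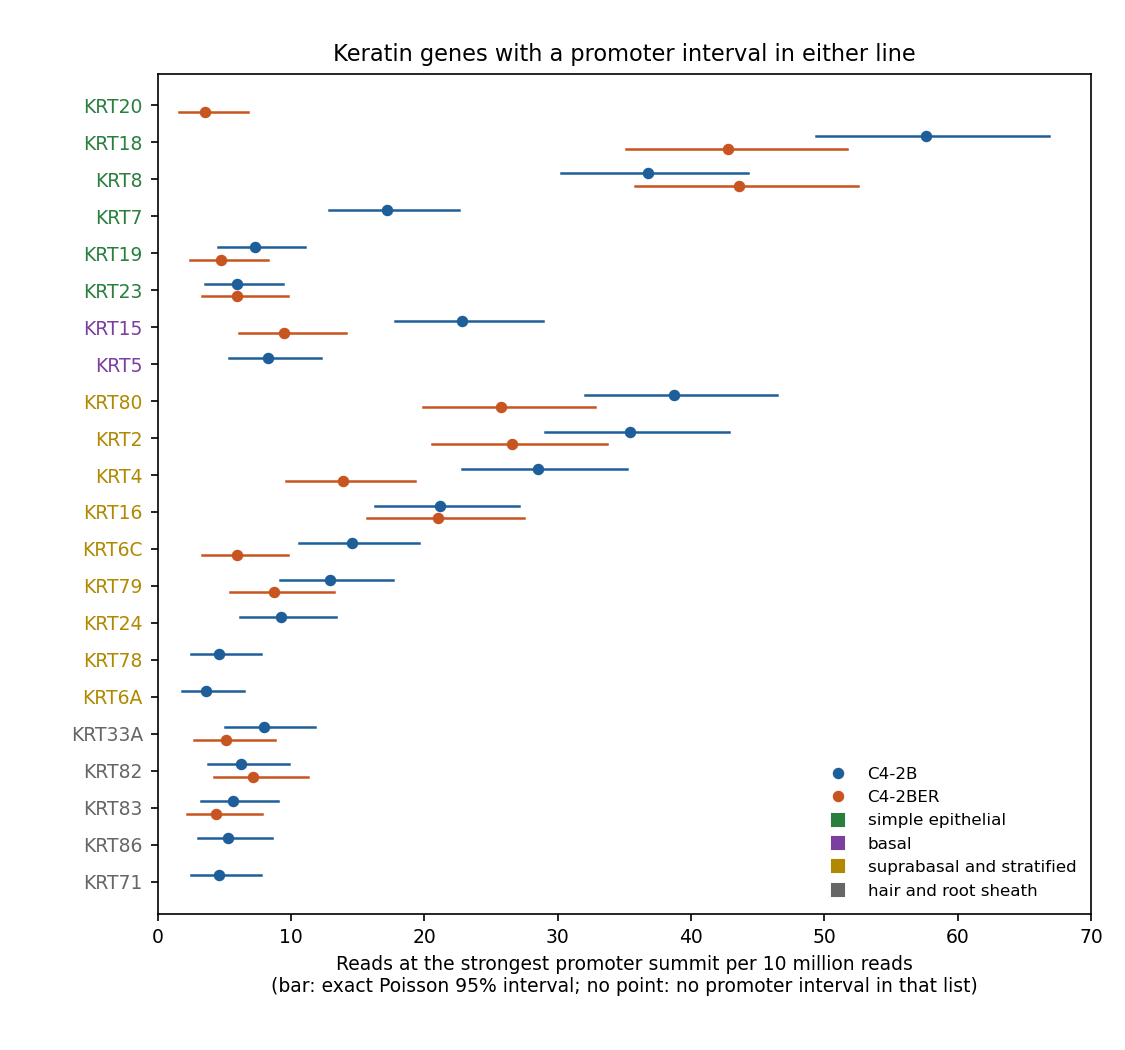
Reads per 10 M reads at the strongest promoter summit (x axis, from 0) of the 22 keratin genes with a promoter interval, with exact Poisson 95% intervals for counting error; gene names are coloured by class and a missing point means no interval in that list. KRT4, KRT6C, KRT15, KRT18 and KRT80 are the genes whose C4-2BER to C4-2B ratio at these summits has an interval wholly below 1. For KRT18 the summits of the 2 lists lie 843 bases apart. The share of all genes with such a ratio interval was not computed.

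Over the 13 genes whose strongest promoter intervals overlapped between the lists, 11 had fewer reads per depth in C4-2BER, with a median ratio of 0.675. Over all 14125 such genes the median ratio was 1.10, and 24.0% had fewer reads per depth in C4-2BER. The keratin intervals are weaker than most and seldom cover a TSS. In the 1615 genes whose strongest C4-2B interval covered no TSS and held 18 to 174 reads, the range of the keratins, the median was 1.02 and 46.4% were below 1. The value was at least 2-fold lower in C4-2BER in 3 of the 13 keratin genes (KRT4, KRT6C and KRT15), against 1.16% of all genes and 6.07% of those 1615. For 5 of the 13 the interval of the ratio lay wholly below 1, and for none wholly above. The same count was not made over all genes, so whether 5 of 13 is unusual is not known. KRT18 was among the 5 with 174 C4-2B reads and 108 C4-2BER reads (ratio 0.743, 0.579 to 0.950). Those 2 summits lay 843 bases apart, and the interval of the ratio at the KRT18 start itself held 1.

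Both clusters were then followed from end to end, with 10 kb added at each side. The chromosome 12 cluster (chr12:52158996-52962906) held 97 C4-2B intervals and 66 C4-2BER intervals. This is 121 and 82.1 intervals per Mb, against 51.0 and 40.4 over the genome. The chromosome 17 cluster (chr17:40644665-41634842) held 77 and 47 intervals, or 77.8 and 47.5 per Mb. By counting error (exact Poisson 95% intervals), the chromosome 12 cluster was richer in intervals than the genome in C4-2B (97.8 to 147.0) and in C4-2BER (63.5 to 104.0), and the chromosome 17 cluster in C4-2B (61.4 to 97.2) but not in C4-2BER (34.9 to 63.1). In C4-2BER the intervals covered 1.76% of the chromosome 17 cluster and 1.96% of the genome. The part between 400 and 600 kb from the start of the chromosome 17 cluster, where many KRTAP genes lie, held only 3 C4-2B intervals and 2 C4-2BER intervals.

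Intervals present in 1 list only were more often those of C4-2B, as they were over the genome. In the chromosome 12 cluster, 41 of the 97 C4-2B intervals had no overlap in the C4-2BER list (42.3%, 32.9 to 52.2), against 37.7% of that whole list. In the chromosome 17 cluster it was 40 of 77 (51.9%, 41.0 to 62.7). In the other direction, 7 of 66 C4-2BER intervals were only there on chromosome 12 (10.6%, 5.23 to 20.3) and 9 of 47 on chromosome 17 (19.1%, 10.4 to 32.5), against 20.8% of the C4-2BER list. The C4-2B-only share on chromosome 12 and the C4-2BER-only share on chromosome 17 were thus near the background, while the C4-2B-only share on chromosome 17 lay above it and the C4-2BER-only share on chromosome 12 just below it by more than counting error. Both departures depended on the list settings. With equal numbers of top intervals in each list the C4-2B-only share on chromosome 17 was 36.4% (24.9 to 49.6) against 29.1% of the list. The C4-2BER-only share on chromosome 12 stayed below the background with those lists (13.6%, 7.34 to 23.9, against 27.7%). It also did with a −log10 q of at least 5 (7.02%, 2.76 to 16.7, against 17.4%). The interval held the background with a −log10 q of at least 10 (9.30%, 3.68 to 21.6, against 14.1%). It also did when shared meant at least 50% of both intervals (27.3%, 18.0 to 39.0, against 32.1%) or allowed a gap of 500 bp (9.09%, 4.23 to 18.4, against 17.7%). Of the intervals in 1 list only, 20 of C4-2B and 2 of C4-2BER on chromosome 12, and 14 and 0 on chromosome 17, had a −log10 q of at least 10 while the other list was kept whole. The share over each whole list was not computed for this count, and C4-2B was the deeper list. With both lists held to that limit, the C4-2B-only share was 44.9% (33.8 to 56.6) on chromosome 12 and 52.2% (38.1 to 65.9) on chromosome 17. Both intervals held the 42.5% of the list. The C4-2BER-only share on chromosome 17 was then 0% (0 to 14.9), against 14.1%.

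In each cluster the strongest interval of C4-2B without a counterpart lay between genes. On chromosome 12 the highest by −log10 q lay between KRT73 and KRT2, 12446 bases before the start of KRT73 (chr12:52630783-52631444, 123 reads, −log10 q of 62.3). The next lay 2741 bases before KRT1, a keratin of the upper epidermis (chr12:52682754-52683308, 61 reads, −log10 q of 40.9), and the third was the KRT7 promoter interval. On chromosome 17 the highest lay 11097 bases before KRT19 (chr17:41539070-41539667, 111 reads, −log10 q of 57.4). It was followed by one 3249 bases before KRT35 (chr17:41484169-41485047, 60 reads, −log10 q of 40.1) and one on an exon of KRT34 (chr17:41378760-41379237, 39 reads, −log10 q of 31.9). At like backgrounds the C4-2BER list called summits with 7 to 24 reads, so each of these held many more reads than the weakest calls of the other list. The 4 intergenic summits are shown with 100 bases on either side, each on the minus strand, on which the named gene lies, as the strongest C4-2B intervals outside genes without a counterpart. They are chr12:52630905-52631105, chr12:52683048-52683248, chr17:41539305-41539505 and chr17:41484300-41484500, and capitals mark the forkhead letters TGTTTAC.
KRT73: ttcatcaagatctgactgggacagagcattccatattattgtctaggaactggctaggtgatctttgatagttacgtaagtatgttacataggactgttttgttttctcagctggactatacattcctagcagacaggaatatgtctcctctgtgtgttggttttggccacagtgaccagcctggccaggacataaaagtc
KRT1: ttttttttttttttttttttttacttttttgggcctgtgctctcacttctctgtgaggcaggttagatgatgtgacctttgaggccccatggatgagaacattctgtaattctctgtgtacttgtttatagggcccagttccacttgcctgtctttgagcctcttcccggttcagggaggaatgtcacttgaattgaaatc
KRT19: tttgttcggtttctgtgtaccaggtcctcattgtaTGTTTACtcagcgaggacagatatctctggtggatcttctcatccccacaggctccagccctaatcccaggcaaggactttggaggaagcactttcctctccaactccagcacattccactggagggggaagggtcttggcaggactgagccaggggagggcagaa
KRT35: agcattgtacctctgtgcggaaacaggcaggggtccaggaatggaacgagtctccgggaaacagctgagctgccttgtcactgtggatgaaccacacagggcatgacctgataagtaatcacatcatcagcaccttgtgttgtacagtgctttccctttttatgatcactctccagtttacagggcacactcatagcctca
Only the KRT19 sequence held the forkhead letters, and none held the AP-1 letters.

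The intervals of C4-2BER without a counterpart were weaker. On chromosome 12 the highest lay just inside KRT8 (chr12:52903456-52903670, 71 reads, −log10 q of 10.8), in the stretch of high background, where the C4-2B list called summits with 46 reads or more. The others were on an exon of KRT3 (chr12:52790150-52790459, 19 reads) and on an exon of KRT77 (chr12:52691233-52691472, 16 reads). On chromosome 17 they were an exonic interval in KRT16 (chr17:41610281-41610504, 15 reads), one 25380 bases before KRT20 (chr17:40910435-40910763, 15 reads) and one at the outer edge of the cluster beyond KRT17 (chr17:41634778-41635054, 17 reads). Their −log10 q lay between 5.36 and 10.8, below those of all 6 C4-2B intervals named above.

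**Figure D4:**
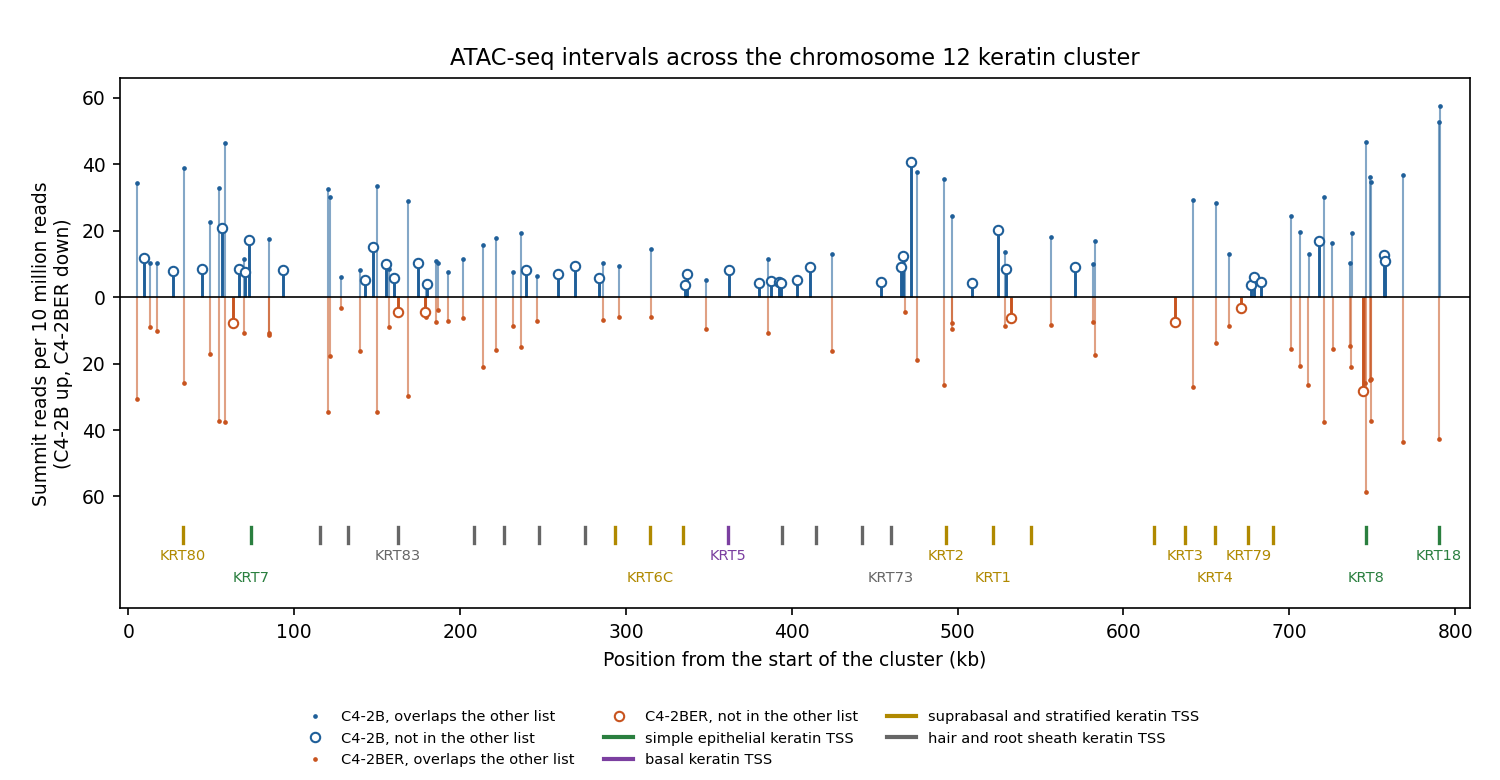
Summit reads per 10 M reads (y axis, C4-2B upward and C4-2BER downward) for every interval of the chromosome 12 keratin cluster against position (x axis, kb from the cluster start); open circles mark intervals absent from the other list and ticks mark canonical keratin TSSs by class. C4-2B has 41 open circles, the highest at 40.7 between KRT73 and KRT2, and C4-2BER has 7.

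**Figure D5:**
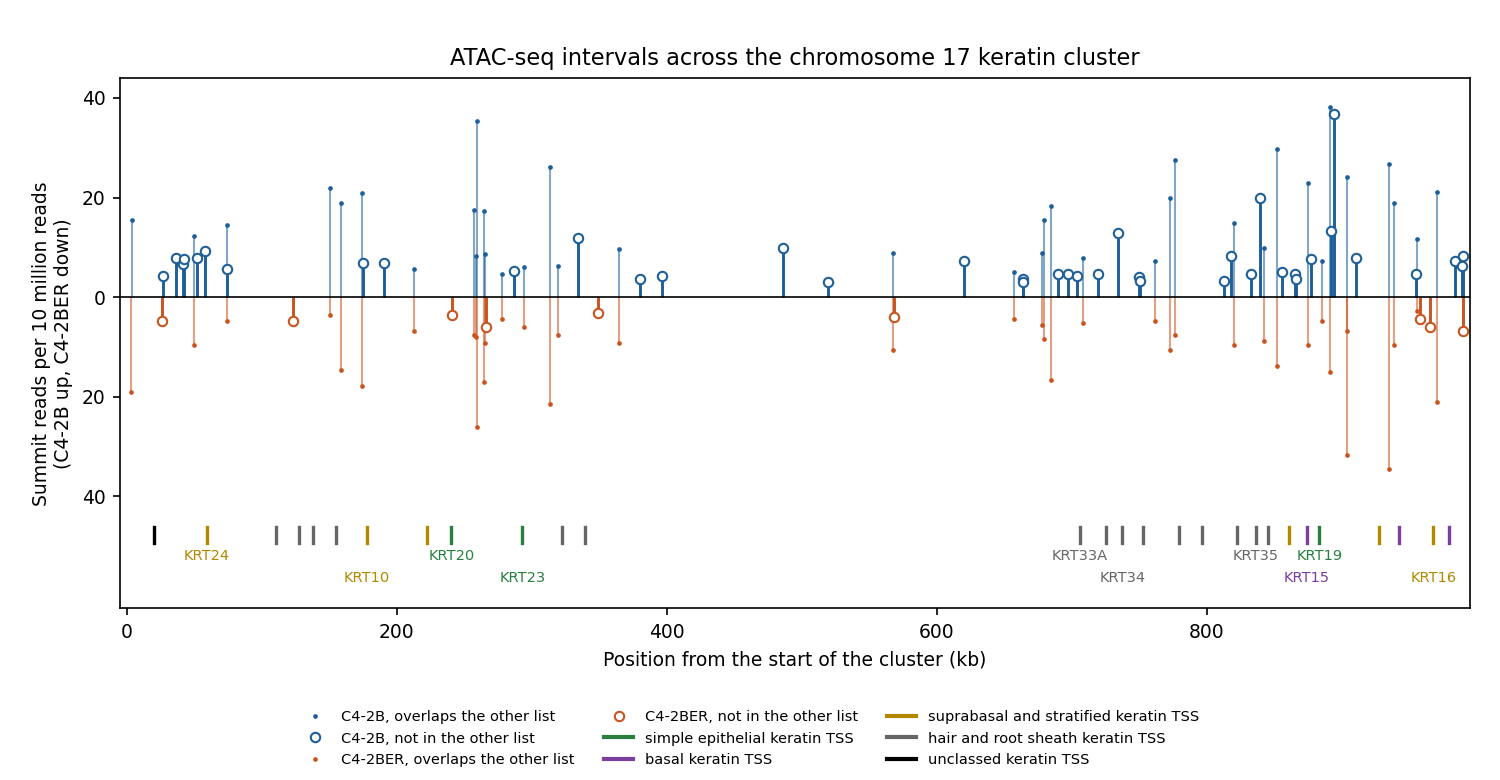
The same plot for the chromosome 17 keratin cluster. C4-2B has 40 open circles, the highest at 36.8 upstream of KRT19, and C4-2BER has 9, the highest at 6.74.

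Where both lists held an interval, the values were also more often lower in C4-2BER. On chromosome 12, 31 of 52 matched summits had fewer reads per depth (59.6%, 46.1 to 71.8), near the 59.7% of all matched summits. On chromosome 17, 29 of 36 did (80.6%, 65.0 to 90.2), a share above that of all matched summits by more than counting error. At least 2-fold lower per depth in C4-2BER were 5 in the chromosome 12 cluster (9.62%, 4.18 to 20.6) and 8 in the chromosome 17 cluster (22.2%, 11.7 to 38.1), against 13.3% of all matched summits, which both of these intervals held. None in either cluster was at least 2-fold higher, against 2.60%, and a count of 0 allows up to 5.77% on chromosome 12 and 8.33% on chromosome 17. The median ratio was 0.905 on chromosome 12, 0.776 on chromosome 17 and 0.909 over all 88109 matched summits. The lowest ratios, chosen here after their values were seen, were in an intron of KRT28, with 66 reads against 9 (0.163), between genes 12299 bases after the start of KRT16, with 35 and 7 (0.239), and on an exon of KRT37, with 83 and 19 (0.274). KRT28 and KRT37 are hair follicle keratins without a promoter interval.

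Short motifs were matched on both strands within 100 bases of the summits in the clusters. The AP-1 letters TGANTCA were at 14 of 93 shared C4-2B intervals (15.1%, against 9.37% of all shared intervals of that list), at 8 of 81 C4-2B-only intervals (9.88%, against 11.2%) and at 0 of 16 C4-2BER-only intervals (against 9.01%). The forkhead letters TGTTTAC were at 5 of the shared (5.38%, against 8.35%), 9 of the C4-2B-only (11.1%, against 12.2%) and 0 of the C4-2BER-only intervals (against 6.12%). The GC box GGGCGG, a feature of CpG-rich promoters, was at 8 shared intervals (8.60%, against 18.1%), 5 C4-2B-only (6.17%, against 4.12%) and 2 C4-2BER-only intervals (12.5%, against 12.8%). The TATAA letters were at 11 shared (11.8%, against 18.0%), 12 C4-2B-only (14.8%, against 24.9%) and 5 C4-2BER-only intervals (31.2%, against 21.5%), and the longer TATAAA, which contains them, at 5 (5.38%, against 9.85%), 10 (12.3%, against 13.4%) and 4 (against 11.4%). The p63 letters CATGNNNNNNCATG were at 1 C4-2B-only interval (1.23%, against 0.719%). The palindromic androgen response element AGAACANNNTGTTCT, the GRHL letters AACCGGTT and the ETS letters CCGGAAGT were at none. The androgen response element was rare everywhere, at 0.085% of all C4-2B-only intervals. With 16 C4-2BER-only intervals, a count of 0 allows a share of up to 18.8%, which is above the share in the whole list for the AP-1 and forkhead letters.

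The genes that attach or control keratin filaments are given beside the 77.7% of all genes with a promoter interval in both lists. Of 18 genes of desmosomes and hemidesmosomes, the junctions that anchor keratin, 12 had one in both lists (66.7%, 43.7 to 83.7). COL17A1 had one in C4-2B only (5.56%, 0.988 to 25.8, against 2.83% of all genes). DSC1 and DSC3 had one in C4-2BER only (11.1%, 3.10 to 32.8, against 3.39%), and 3 genes had none. Each of the intervals given held the share of all genes. Of 17 transcription factors known to control keratin genes, all but TP63 had one in both lists (94.1%). Of 15 other intermediate filament genes, 14 had one in both lists (93.3%, 70.2 to 98.8) and DES, the muscle filament, had none. All 5 luminal and all 4 neuroendocrine marker genes examined had one in both lists, so presence of a promoter interval at these markers did not separate the lines.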

How the data were processed

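ATAC-seq reads of 2 libraries per line were trimmed, aligned to hg38 with Bowtie2, filtered for mapping quality, freed of duplicates with Picard and merged per line, and peaks were called with MACS2 without a model, all by the authors; the submitters' processing notes also name FastQC and bedtools 2.17. The version of MACS2 is not given in the sources used here. The deposited fold is the ratio (reads + 1) to (local background + 1) at the summit. The −log10 p and −log10 q, deposited beside it, are those of the summit within its own list. The deposited score, a whole-number form of the q-value, was not used. The deposited summit offset, of another kind, is in bp.

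Reads and background of each summit were solved from the authors' fold and −log10 p, which gave whole reads for 100% of summits (tolerance 0.001 in −log10 p). Tested on simulated data, this recovered 100% of 14377 summits. Depth follows from the lowest background, for a genome size of 2700000000 bp. The weakest listed summits had 8 (C4-2B) and 7 (C4-2BER) reads, and sites below that are absent. Each interval was counted once, by its summit of highest −log10 p, and was shared when it overlapped the other list by at least 1 bp. Read ratios were divided by the depth ratio of 0.836, with exact Clopper-Pearson intervals, and shares carry Wilson intervals (SciPy 1.17.1, pandas 2.3.3, pysam 0.24.0). No test between lines was run, since each has 1 list. Every member with a promoter interval is named; line-only intervals are named where they are the 3 highest by −log10 q in their list and cluster, and comparison lists by counts and by genes with an interval in 1 list. Sequences shown in the text and sites with their motif shares were picked after their values were seen. The members, classes and gene lists were chosen with earlier results of these data known. Alternatives were stricter lists, equal numbers of intervals, depth scaling, other promoter windows and starts, and other overlap rules.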

Additional observations from a re-analysis of the deposited data

How the results depend on the processing

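No paired analysis was possible because each line has 1 list called on its pooled replicates, and no replicate could be left out. Of 92 alternative values, 72 stayed close to the reported one, 20 moved and none reversed direction. A count was close within 1.5 times, a gene's ratio within its own counting interval and the median ratio only when equal. All 11 counts from the C4-2B list scaled to the C4-2BER depth equalled the reported ones, so that alternative tested little. With a −log10 q of at least 5, no keratin gene had a promoter interval in C4-2BER only, and 4 C4-2BER-only intervals were left on chromosome 12 and 5 on chromosome 17. With a −log10 q of at least 10, 8 genes had one in both lists, and the 1 gene in C4-2BER only was KRT82 in place of KRT20. Under that limit the chromosome 12 cluster held 43 C4-2BER intervals with 4 only there, and the chromosome 17 cluster held 46 C4-2B intervals with 24 only there and 22 C4-2BER intervals with 0 only there. With equal numbers of top intervals, 3 genes were in C4-2B only (KRT5, KRT7 and KRT24), with 27 C4-2B-only intervals on chromosome 12 and 20 on chromosome 17. With a promoter of 1 kb either side, 9 genes were in both lists, 3 in C4-2B only and 2 in C4-2BER only (KRT20 and KRT83). The simple epithelial KRT7, KRT19 and KRT23 then had no promoter interval, while the basal KRT5 and KRT15 kept theirs. The contrast between these classes thus depended on the window. With 2 kb upstream to 500 bp downstream, 2 were in C4-2BER only, again KRT20 and KRT83. With canonical starts only, 12 genes were in both lists and 6 in C4-2B only. KRT79 was then in C4-2B only, and KRT16, KRT78 and KRT86 had no promoter interval. A reciprocal overlap of 50% gave 18 C4-2BER-only intervals on chromosome 12, and counting neighbours within 500 bp as shared left 5 on chromosome 17. The median promoter ratio of 0.675 became 0.631 when divided by the ratio of median promoter reads of all genes in place of the depth ratio, and stayed at 0.675 with the C4-2BER summit nearest to the C4-2B summit, a choice made after seeing the data. The causes of these moves were not tested, other than that stricter lists hold fewer intervals. KRT5 was in C4-2B only under every alternative list, window and choice of starts. KRT7 and KRT24 were so under each of the 4 alternative lists, but neither was with 1 kb either side, KRT24 was not with 2 kb upstream to 500 bp downstream, and KRT7 was in both lists when starts of any transcript were counted. Promoter intervals such as those of KRT20 with 9 reads and KRT6A with 11 reads lie near the limit of what either list can hold.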
